A study of Mus musculus with 4 samples.

Results

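The 9 genes followed were the transcription factors Zeb1, Zeb2, Snai1, Snai2 and Twist1, the cadherins Cdh1 and Cdh2, the intermediate filament gene Vim and the surface adhesion gene Epcam. They were found by their symbols among 19465 measured genes, and all 9 were present. The sections came from 2 BALB/c mice, called A and B here, of 8 weeks of age, each of which received 100000 4T1 cells in the mammary fat pad and gave 1 section of the primary tumour and 1 of the lung after 28 days. 4T1 is a cultured mammary carcinoma line of the BALB/c strain that spreads to the lung. Sections were 4 µm thick and fixed in formalin and paraffin, and RNA was read by Visium probes on a grid of spots, each of which covers a small area that can hold several cells. Both mice carried tumours, so no lung of an animal without a tumour entered a comparison.

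In epithelial to mesenchymal transition (EMT), epithelial cells loosen their junctions and take on mesenchymal features. Zeb, Snai and Twist proteins bind E-box motifs in DNA, and the best known target they repress is Cdh1, which encodes E-cadherin of adherens junctions. Epcam encodes another epithelial adhesion protein, Cdh2 encodes N-cadherin and Vim encodes vimentin. None of these genes belongs to carcinoma cells alone, since Cdh1 and Epcam are used by the epithelium of lung airways and alveoli, Vim by leukocytes, fibroblasts and endothelium, and Zeb1 and Zeb2 by many stromal and immune cells.

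The factors act through E-boxes, so promoter sequence is shown for Epcam, which passed the test between the tissues, for Twist1, whose call depended on the fit, and for Snai1, the factor whose window held a match. RefSeq windows of 5 of the 9 members were used, and those of Vim and Zeb2 held no match. The E-box letters searched were CAGGTG, with CACCTG as its reverse complement, in the 250 bases before the start of the gene as RefSeq gives it on GRCm38.p6, and 17.2% of 32851 such windows held at least 1 match. Epcam, on the plus strand at chr17:87635729-87635978, held 2 matches, at 187 and 19 bases before the start, and 2 or more were held by 2.06% of all windows. Snai1, on the plus strand at chr2:167537945-167538194, held 1 match at 126 bases before its start. Twist1, on the plus strand at chr12:33957421-33957670, held none. Capitals mark the matches, and each sequence runs 5′ to 3′.
Epcam: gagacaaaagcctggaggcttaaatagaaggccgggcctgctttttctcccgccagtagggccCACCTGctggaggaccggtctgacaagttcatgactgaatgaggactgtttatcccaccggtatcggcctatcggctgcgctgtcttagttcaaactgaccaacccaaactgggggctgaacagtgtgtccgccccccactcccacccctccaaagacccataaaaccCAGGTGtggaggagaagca
Snai1: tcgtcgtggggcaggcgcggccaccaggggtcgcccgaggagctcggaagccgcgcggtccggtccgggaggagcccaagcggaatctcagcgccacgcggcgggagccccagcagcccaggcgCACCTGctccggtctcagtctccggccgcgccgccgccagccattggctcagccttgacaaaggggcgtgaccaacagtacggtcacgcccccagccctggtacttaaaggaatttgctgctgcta
Twist1: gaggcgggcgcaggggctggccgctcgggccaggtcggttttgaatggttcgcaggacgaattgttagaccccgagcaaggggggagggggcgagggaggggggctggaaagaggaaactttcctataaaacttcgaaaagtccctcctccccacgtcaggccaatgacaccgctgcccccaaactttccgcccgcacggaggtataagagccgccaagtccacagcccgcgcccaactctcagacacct
A match is a description of letters in the window and no measure of binding.

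In the annotation of the mm10 build (GENCODE M21), Epcam spans chr17:87635979-87651129, Snai1 chr2:167538195-167542814, Twist1 chr12:33957671-33959829, Cdh1 chr8:106603351-106670246, Snai2 chr16:14705852-14709385 and Vim chr2:13573927-13582826, each on the plus strand. Zeb2 spans chr2:44983632-45117395 on the minus strand. Counts are given per gene, with no position within it.

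Of 9445 spots under tissue, 9339 with more than 200 detected genes were kept, and the 106 left out all came from the primary tumour of animal A. The kept spots held between 10890154 and 30240176 unique molecular identifiers (UMIs) per section, with a median depth of 2931 (animal A) and 1820 (animal B) for primary tumour spots and 6555 and 9174.5 for lung spots. One section stood apart: 1178 olfactory and vomeronasal receptor genes, which serve here as a measured background, gave 42.5 UMIs a spot in the animal B primary tumour and 1.59 to 4.72 in the other 3 sections. Their median level there was 6.61 CPM (UMIs scaled to a section total of 1000000) and their 95th percentile 19.0 CPM, against 95th percentiles of 1.70, 0.54 and 0.40 CPM in the primary tumour of animal A and the lungs of animals A and B. Marker genes went with the labels, but the lists were chosen with earlier results of these data known, so this is no independent check. The surfactant gene Sftpc led the alveolar type 2 list in both lungs. The 6 tumour markers (Csf3, Mmp3, Mmp10, Mmp13, Plau and Hmga2) summed to 4416 and 5126 CPM in the primary tumours. In the lungs the tumour markers summed to 97.3 CPM in animal A and 1139 CPM in animal B, and 68.5% and 11.6% of spots had no UMI of them. Probes differ in number and strength between genes, so levels are compared within a gene only, and fewer cells of a type cannot be told apart from less RNA per cell.

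**Figure D1:**
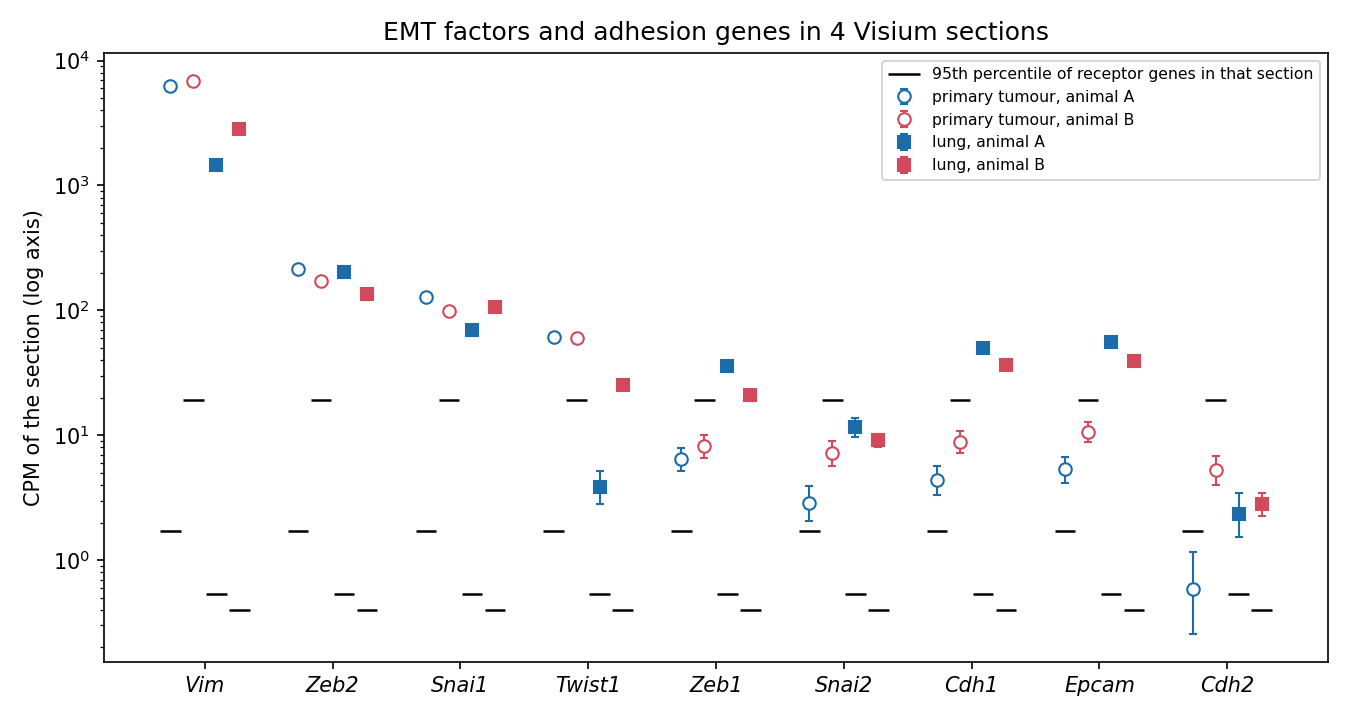
Level of each gene in the 4 sections, in CPM on a log axis, with exact 95% Poisson intervals of the section's count; circles are primary tumours, squares are lungs, blue is animal A, red is animal B, and black ticks mark the 95th percentile of receptor genes of that section. Cdh1, Epcam, Zeb1 and Snai2 lie higher in both lungs than in both primary tumours, and Twist1 and Vim lie lower. With so few sections a tissue such a separation can arise by chance, and its share among all genes was not counted. In the primary tumour of animal B 5 genes fall under the tick.

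The first comparison asked how the genes differ between lung and primary tumour over whole sections. Cdh1 and Epcam were higher in lung, Zeb1 followed them, and Twist1 and Vim were highest in the primary tumours. Of the 9 genes, 3 passed edgeR's quasi-likelihood test at an adjusted p of 0.05, all higher in lung, where 7.46% of 15267 tested genes passed, 6.31% as higher and 1.15% as lower. That split depended on the fit, with 9.41% higher and 7.91% lower in DESeq2 and 7.25% and 27.3% in edgeR without the primary tumour of animal A. With the mouse as a block, 4 passed, where 11.9% of all genes passed, 9.17% as higher and 2.73% as lower in lung.

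Cdh1, the E-cadherin gene, stood at 50.3 and 36.6 CPM in the lungs of animals A and B and at 4.36 and 8.91 CPM in their primary tumours. The groups did not overlap, and the log2 fold change was 3.05 ± 0.49 (SE, n = 2 sections a tissue, adjusted p = 0.0090). With so few sections a lack of overlap can arise by chance, and its share among all tested genes was not counted. Here and for the genes below it is thus a description and no support for a difference. Within animals the lung was 11.5-fold higher in animal A and 4.11-fold higher in animal B. In the primary tumour of animal B, 24.5% of receptor genes lay above Cdh1, so that its value there was inside the background range.

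Epcam, the epithelial adhesion gene with both E-box matches, stood at 55.8 and 39.4 CPM in the lungs and 5.32 and 10.7 CPM in the primary tumours, with no overlap. Its log2 fold change was 2.92 ± 0.48 (SE, adjusted p = 0.0096), and the lung was 10.5-fold higher in animal A and 3.70-fold higher in animal B. A UMI of Epcam was seen in 26.8% and 30.2% of lung spots against 2.57% and 4.34% of primary tumour spots. With every spot thinned to 1000 UMIs, which left out 10 and 5 lung spots and 886 and 56 primary tumour spots, these shares were 5.28% and 4.14% against 0.62% and 1.77%. At equal depth both lungs were thus still above both primary tumours, while the order of the lungs turned, and 14.9% of receptor genes lay above Epcam in the primary tumour of animal B.

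Zeb1, one of the E-box binding repressors, went the same way as these adhesion genes, with 35.8 and 21.0 CPM in the lungs and 6.43 and 8.17 CPM in the primary tumours. The groups did not overlap, and the log2 fold change was 2.30 ± 0.50 (SE, adjusted p = 0.025). The call was lost without the lung of animal A (adjusted p = 0.27) and without the primary tumour of animal B (adjusted p = 0.067). In that primary tumour 31.1% of receptor genes lay above Zeb1.

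A background fit, in which each section's mean receptor-gene level was subtracted from every gene, called 98 genes. In it the log2 fold changes of Cdh1, Epcam and Zeb1 were larger, at 4.27 ± 0.67, 3.71 ± 0.48 and 3.37 ± 1.22 (SE), and none passed (adjusted p = 0.071, 0.0504 and 0.17). With the mouse as a block as well, 919 of 13374 genes were called (6.87%), and adjusted p was 0.0081, 0.0091 and 0.049. These fits were an edgeR test on the subtracted counts. In the primary tumour of animal B the 3 genes had 97, 116 and 89 UMIs before subtraction. These were only 1.35, 1.61 and 1.24 times the receptor median. Subtraction thus left few UMIs there, and the larger fold changes rest on what was left.

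Twist1, a basic helix-loop-helix factor, differed more between both lungs than any other of the 9 genes. It stood at 60.9 and 59.8 CPM in the primary tumours, nearly level, but at 3.87 CPM in the lung of animal A and 25.2 CPM in the lung of animal B. The primary tumour was 15.8-fold higher than the lung in animal A and 2.38-fold higher in animal B. The log2 fold change of -1.84 ± 0.64 (SE) did not pass the edgeR test (adjusted p = 0.13), and with the mouse as a block it was -2.27 ± 0.51 and passed (adjusted p = 0.000197), as it did without the block in DESeq2 (adjusted p = 0.033) and in edgeR with no filter on low genes (adjusted p = 0.0062). Without the lung of animal A the edgeR value was -0.94 (adjusted p = 0.50), and without that of animal B -3.33 (adjusted p = 9.86e-07). With background subtracted as well as the block, adjusted p was 0.070. Tumour markers (97.3 and 1139 CPM), macrophage markers (453 and 1061 CPM) and fibroblast markers (842 and 1825 CPM) had the same order in the lungs, as had cardiac and epidermis markers. Airway, alveolar, endothelial, smooth muscle, neutrophil and lymphoid markers had the opposite order. Their part in the Twist1 difference was not tested.

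Vim stood at 6217 and 6858 CPM in the primary tumours and 1458 and 2813 CPM in the lungs, without overlap. The log2 fold change of -1.36 ± 0.55 (SE) did not pass (edgeR adjusted p = 0.18), and DESeq2 on the same sums gave -1.40 with adjusted p = 0.0066. In the lung of animal B, as for Twist1, the level lay nearer to the primary tumours.

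Zeb2 and Snai1 were measured well above the receptor genes in all sections and overlapped between the tissues. Zeb2 stood at 213 and 171 CPM in the primary tumours and 203 and 135 CPM in the lungs, so that in both animals the lung was the lower one, by 1.05-fold and 1.27-fold. Its log2 fold change under the scaling of edgeR was 0.14 ± 0.42 (SE, adjusted p = 0.89), with a sign opposite to that of the CPM. Snai1 stood at 127.5 and 98.9 CPM in the primary tumours and 70.0 and 106.5 CPM in the lungs, lower in the lung of animal A and not in that of animal B (log2 fold change -0.09 ± 0.36, adjusted p = 0.92). The fits leave room for a difference in either direction.

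Snai2 and Cdh2 had few UMIs. Snai2, the gene of the factor Slug, stood at 2.88 and 7.16 CPM in the primary tumours and 11.6 and 9.09 CPM in the lungs. The groups did not overlap, and the log2 fold change of 1.38 ± 0.75 did not pass (edgeR adjusted p = 0.31). The value of Snai2 in the primary tumour of animal B was at background, with 42.6% of receptor genes above it. Cdh2 had 8 UMIs in the primary tumour of animal A (0.59 CPM, at the receptor median) and 57 in that of animal B (5.23 CPM, below the receptor median), so neither value was above background. In the lungs it had 26 and 85 UMIs, or 2.34 and 2.81 CPM, above all but 1 of the 1178 receptor genes in each.

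Markers of lung tissue moved with Cdh1, Epcam and Zeb1. The 5 measured of 6 alveolar type 2 markers summed to 53.2 and 63.2 CPM in the primary tumours and 11170 and 6552 CPM in the lungs, the 4 measured of 6 airway markers to 15.2 and 26.6 against 1655 and 751 CPM, and the 6 endothelial markers to 212 and 149 against 2464 and 1110 CPM. The 6 neutrophil markers, led by S100a9 and S100a8, summed to 2469 and 10860 CPM in the primary tumours and 76960 and 31260 CPM in the lungs. None of these markers was at 0 in any section, and their part in the differences was not tested.

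**Figure D2:**
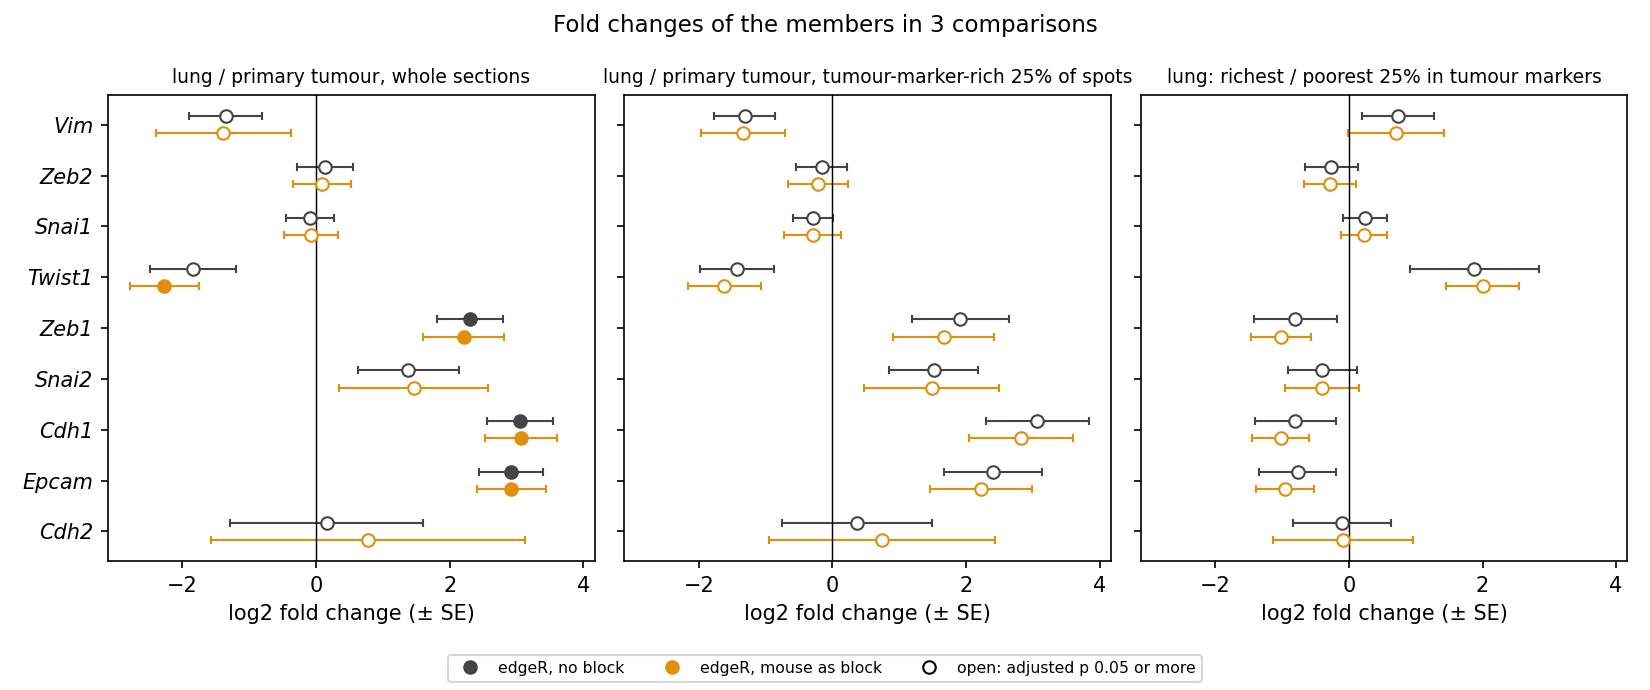
Log2 fold changes of the 9 genes with standard errors from edgeR, without (grey) and with (orange) the mouse as a block, for lung against primary tumour over whole sections, the same in the 25% of spots richest in tumour markers, and bin 4 (richest) against bin 1 (poorest) within the lungs. Filled points have an adjusted p under 0.05, and all of them stand in the first panel: Cdh1, Epcam and Zeb1 above 0 in both fits and Twist1 at -2.27 with the block.

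The genes around these members in the EMT programme were read in the same fit, from lists of epithelial regulators, epithelial junctions, the cadherin-catenin complex, mesenchymal genes, other EMT factors and TGF-beta inputs. Their counts stand beside the 6.31% of all genes called higher and 1.15% called lower (9.17% and 2.73% with the block), and 1 called gene in a list of this size is near those shares. Of 29 tested epithelial junction genes 6 were higher and 1 lower in lung, and the median of the list lay at 0.35 on the log2 scale, where that of all tested genes lay at -0.0046. Krt19, a simple-epithelium keratin, was at 71.1 and 50.8 CPM in the lungs and 2.73 and 5.23 CPM in the primary tumours. Crb3, of the apical polarity complex, was at 19.9 and 15.2 against 0.15 and 3.77 CPM and passed with the block only (adjusted p = 0.0016, without it 0.093). Among 14 tested epithelial regulators 1 was higher, and with the block 2 were higher and 1 lower. Cebpa, a factor of alveolar epithelium and myeloid cells, was at 60.7 and 46.5 CPM in the lungs against 15.4 and 5.60 CPM. Foxa2, a factor of lung epithelium, was at 24.2 and 13.2 against 0.15 and 3.58 CPM, and Gata3, a factor of luminal mammary epithelium, was lower in lung at 21.4 and 83.5 against 167.5 and 171.5 CPM. Both passed with the block only. In the primary tumour of animal B, Krt19, Crb3, Cebpa and Foxa2 lay under the receptor median of 6.61 CPM. In that of animal A, Crb3 and Foxa2 lay under the receptor median of 0.59 CPM. These values were thus at background.

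Vim was lower in lung without passing, and of the 25 genes of the mesenchymal list 8 were higher in lung and 0 lower, with a median log2 fold change of 0.56, and with the block 10 were higher and 3 lower. The highest were contractile genes: Tagln, which is also on the smooth muscle list, at 181 and 151 CPM in the lungs against 17.7 and 27.2 CPM, and Acta2, smooth muscle actin, at 133 and 61.2 against 9.31 and 18.9 CPM. The 6 smooth muscle markers summed to 445 and 298 CPM in the lungs against 27.9 and 61.1 CPM, and the 6 fibroblast markers to 842 and 1825 against 806 and 391 CPM, and their part was not tested. Lower with the block were Mmp14, a membrane-bound matrix protease, at 52.7 and 194 CPM in the lungs against 574 and 508 CPM, and Tnc, the matrix glycoprotein tenascin C, at 22.4 and 132 against 354 and 144 CPM. In both, as in Twist1 and Vim, the lung of animal B stood nearer to the primary tumours than that of animal A.

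Of 17 tested cadherin-catenin genes 2 were higher, which is little above the share of all genes: Cdh5, the endothelial cadherin and itself an endothelial marker, at 485 and 254 CPM in the lungs against 83.9 and 55.4 CPM, and Cdh11, a cadherin of mesenchymal cells, at 34.5 and 35.0 against 7.09 and 8.54 CPM. Of 18 other EMT factors 1 was higher and 2 lower, and with the block 5 were lower. Sox9 was at 2.88 and 23.7 CPM in the lungs and 79.7 and 174 CPM in the primary tumours. Hmga2, which is 1 of the 6 tumour markers, was at 14.2 and 93.7 against 324 and 343 CPM and passed with the block only. Id1, an inhibitor of helix-loop-helix factors, was higher at 249 and 205 against 94.96 and 74.8 CPM. Of 17 TGF-beta inputs 1 was higher and 3 lower. Bmp4 was higher at 29.4 and 14.8 against 1.85 and 5.97 CPM, Bmp7 lower at 1.53 and 6.09 against 27.5 and 35.1 CPM, and Ltbp1, which binds latent TGF-beta, lower at 27.7 and 85.8 against 275 and 227 CPM. In the primary tumour of animal B, Bmp4 lay under the receptor median of 6.61 CPM and Cdh11 under the 95th percentile of 19.0 CPM.

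The second comparison asked how the genes move within the lung with the tumour markers. Spots of each lung were ranked by their share of tumour-marker UMIs and cut into 4 bins of 25% each, bin 1 poorest and bin 4 richest. In animal A bins 1 and 2 had no tumour-marker UMI at all, nor had 74.1% of spots in bin 3, and bin 4 reached 348 CPM. Ties were split by barcode, so bins 1 to 3 of animal A are mostly not ordered by tumour markers. In animal B the bins rose from 103 to 2087 CPM. Twist1 and Vim were higher in bin 4 of both lungs, and Cdh1, Epcam and Zeb1 were lower in bin 4 of animal B. None of the 9 genes passed edgeR's test, where 0 of 12290 genes passed (0%), 207 had an unadjusted p under 0.05 and DESeq2 called 2. With the mouse as a block 54 genes passed (0.439%), all higher, and none was a member. In that fit 4 of the 9 had an unadjusted p under 0.05, as had 2430 of the 12290 tested genes.

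Twist1 had 5, 6, 4 and 28 UMIs in bins 1 to 4 of animal A, or 1.85, 2.36, 1.30 and 10.0 CPM. In animal B it rose over the bins from 9.03 through 16.6 and 26.8 to 35.1 CPM. The log2 fold change of bin 4 against bin 1 was 2.36 in animal A and 1.80 in animal B, and 1.88 ± 0.96 (SE, edgeR adjusted p = 0.72) over both, or 2.001 ± 0.55 with the block (adjusted p = 0.12).

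Vim stood at 1274, 1281, 1343 and 1925 CPM over the bins of animal A and at 1681, 2145, 3017 and 3485 CPM over those of animal B. Bin 4 was the highest in both animals (log2 fold change 0.74 ± 0.54, adjusted p = 0.72). Snai1 rose over the bins of animal B from 83.6 to 121 CPM, and in animal A it stood at 70.0 CPM in bin 1 and 77.7 CPM in bin 4, with counting intervals that overlapped. Macrophage markers moved in the same direction, from 363 to 681 CPM in animal A and from 578 to 1385 CPM in animal B, as did fibroblast markers, from 687 to 1209 CPM and from 1252 to 2060 CPM, and their part was not tested.

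Cdh1 stood at 55.2, 58.1, 37.8 and 17.1 CPM over the bins of animal B, lowest in bin 4. In animal A, where bins 1 to 3 were mostly tied without a tumour-marker UMI, it stood at 54.1, 45.6, 50.3 and 50.8 CPM, with no such order. Epcam was also lowest in bin 4 of animal B, with 63.2, 58.2, 39.8 and 19.7 CPM in animal B and 53.7, 54.2, 60.0 and 54.7 CPM in animal A. Zeb1 stood at 33.0, 30.2, 22.4 and 10.6 CPM in animal B and 33.7, 40.5, 38.0 and 31.1 CPM in animal A. Log2 fold changes of these 3 genes were -1.85, -1.84 and -1.81 in animal B and -0.17, -0.05 and -0.19 in animal A, and over both animals about -0.8 each (adjusted p = 0.72, and 0.21 to 0.24 with the block). Beside them in animal B, the airway markers went from 1724 to 85.3 CPM, the alveolar type 2 markers from 10780 to 2540 CPM, the endothelial markers from 1916 to 462 CPM and the neutrophil markers from 66590 to 6573 CPM, while the median depth of a spot went from 6802 to 15942 UMIs. In animal A the same 4 lists went from 2058 to 1394, 11590 to 10460, 2585 to 2160 and 80880 to 63730 CPM, with median depths of 6402 and 6538 UMIs. The part of these lists and of depth was not tested.

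Zeb2 and Snai2 did not pass either (edgeR adjusted p = 0.78 and 0.76). Zeb2 stood at 203 and 190 CPM in bins 1 and 4 of animal A, with overlapping counting intervals, and at 147 and 124 CPM in animal B, where they did not overlap. Snai2 stood at 13.7 and 11.4 CPM in animal A and 9.45 and 7.66 CPM in animal B, with overlapping counting intervals.

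**Figure D3:**
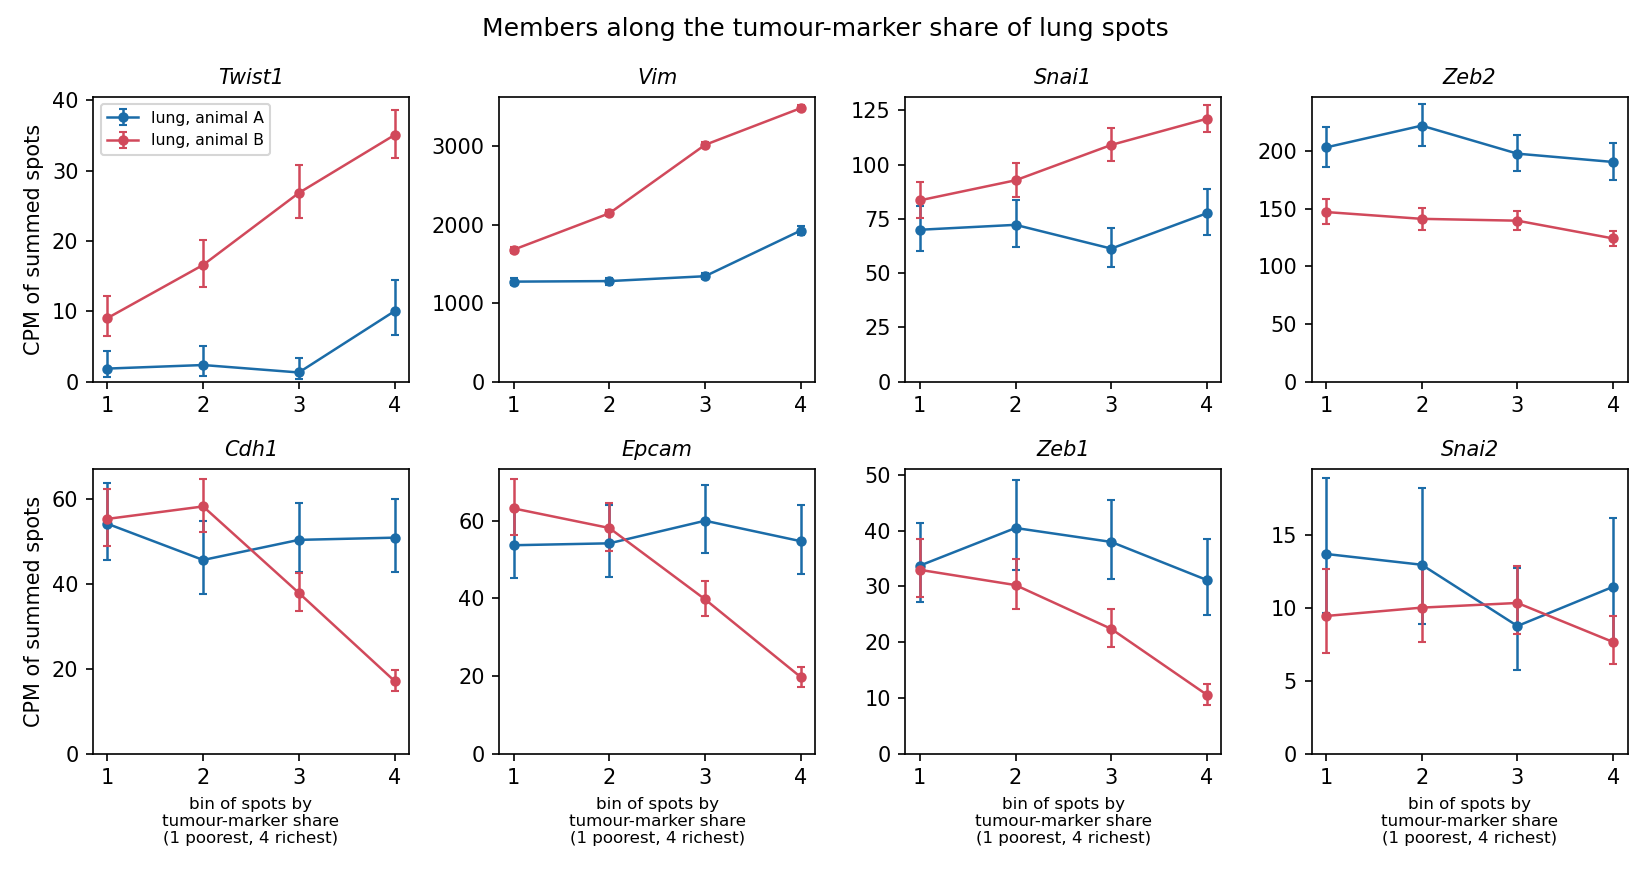
Level of 8 genes in 4 bins of lung spots ordered by their share of tumour-marker UMIs, from poorest (1) to richest (4), in CPM of the summed spots on linear axes from 0, with exact 95% Poisson intervals that cover counting error only; blue is animal A and red animal B. Twist1 and Vim are highest in bin 4 of both lungs, and Cdh1, Epcam and Zeb1 decline from bin 2 to bin 4 in animal B. In animal A their intervals in bins 1 and 4 overlap, a difference between the animals that was not tested. Bins 1 and 2 of animal A and 74.1% of spots in its bin 3 had no tumour-marker UMI, so those bins are mostly ties.

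**Figure D4:**
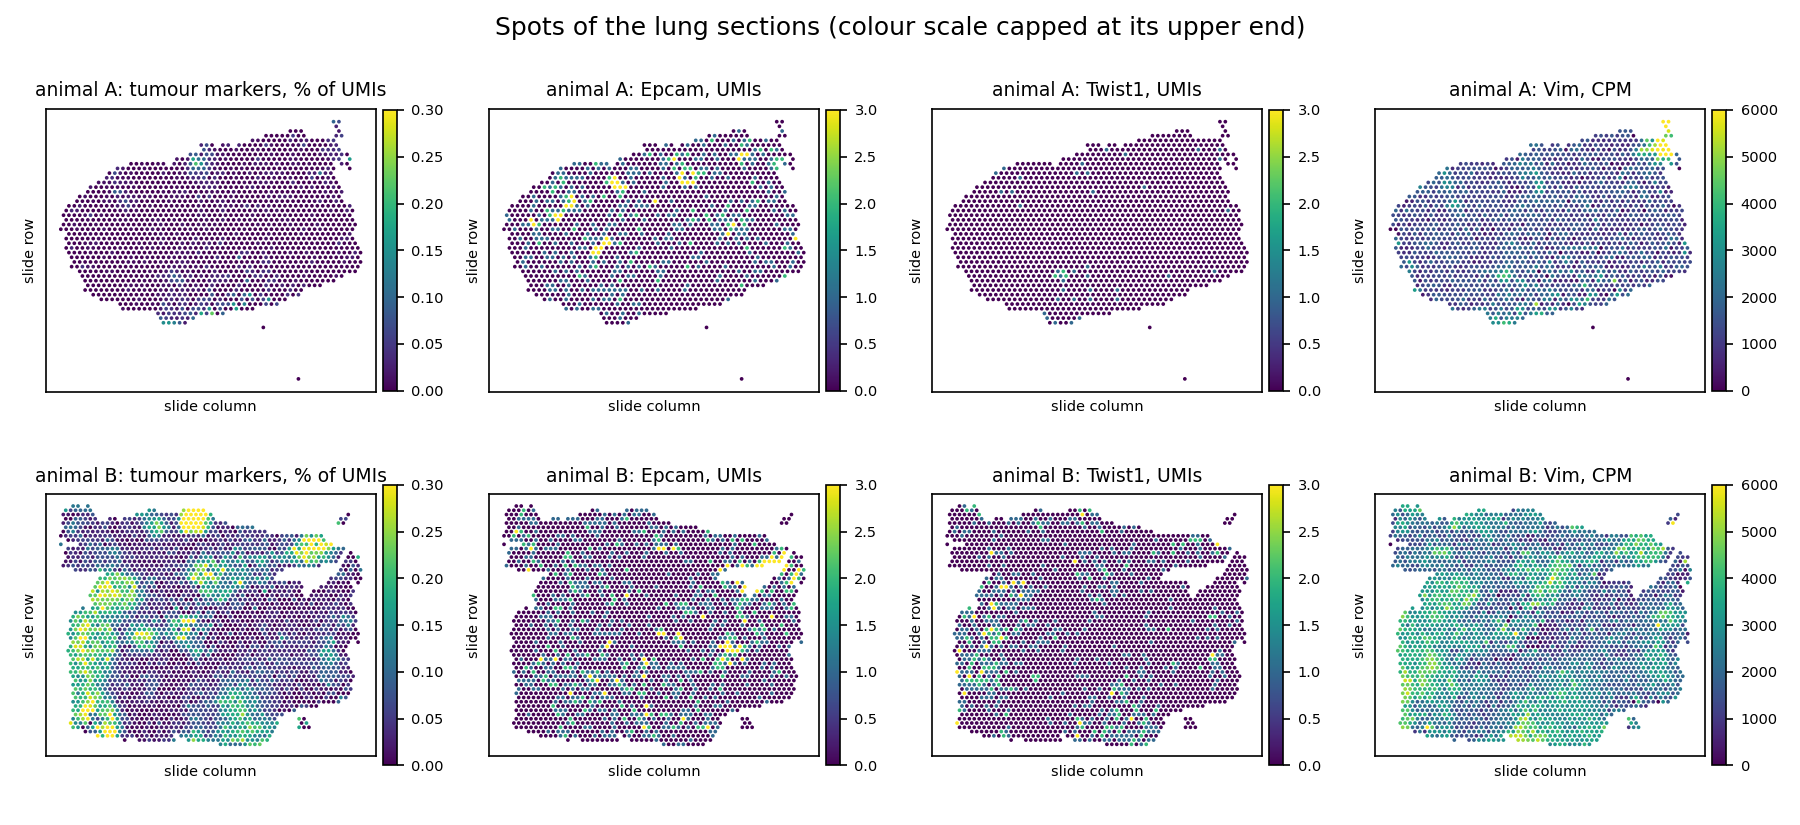
Spots of both lung sections at their place on the slide grid, coloured by the share of tumour-marker UMIs in percent, the UMIs of Epcam and Twist1 and the CPM of Vim, each scale capped at its upper end. In animal B several patches carry tumour markers and the left margin also carries Twist1, while Epcam forms small separate clusters of spots in both animals.

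The next comparison set bin 4 of the lung, the 25% of spots richest in tumour markers, against bin 4 of the primary tumour. None of the 9 genes passed edgeR's test, where 0 of 12661 genes passed (0%), although 1531 genes and 4 of the 9 had an unadjusted p under 0.05. With the block 6 genes passed (0.0474%), 0.0237% as higher and 0.0237% as lower, and none was a member. DESeq2 called 737 genes, among them Cdh1 (adjusted p = 0.0047) and Epcam (adjusted p = 0.031), so that the calls of these genes depended on the tool.

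Cdh1 in these bins stood at 50.8 CPM in the lung and 3.01 CPM in the primary tumour of animal A, and at 17.1 and 5.23 CPM in animal B. Epcam stood at 54.7 and 4.92 CPM in animal A and 19.7 and 9.37 CPM in animal B. Zeb1 stood at 31.1 and 5.20 CPM in animal A and 10.6 and 6.13 CPM in animal B. All 3 genes were thus higher in the lung bin in each animal, but Cdh1 and Zeb1 in the primary tumour bin of animal B lay under the 95th percentile of receptor genes there, 8.11 CPM, so their ratio in that animal rests on background (log2 fold changes over both animals 3.07 ± 0.77, 2.41 ± 0.73 and 1.92 ± 0.72, SE). Twist1 stood at 10.0 and 61.3 CPM in animal A and 35.1 and 58.2 CPM in animal B, and Vim at 1925 and 6261 CPM and at 3485 and 6979 CPM, both lower in the lung bin. The bins were not alike in tumour markers, which summed to 348 and 2087 CPM in the lungs and 6483 and 7291 CPM in the primary tumours of animals A and B. Alveolar type 2 markers summed to 10460 and 2540 CPM in the lung bins and 47.6 and 50.3 CPM in the primary tumour bins, and their part was not tested.

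To see where in the tissue the genes lie, the 5% of spots richest in each list of cell type markers was compared with the other 95% of its section, as a description without a test. In the lung the airway-rich spots led for both epithelial adhesion genes. Epcam had 128 UMIs or 210.5 CPM (95% Poisson interval 176 to 250.3) in the 85 airway-rich spots of animal A against 46.9 CPM elsewhere, and 235 UMIs or 237 CPM (208 to 269) in the 139 of animal B against 32.7 CPM. Cdh1 had 135 CPM (107 to 167) against 45.4 CPM in animal A and 167 CPM (143 to 195) against 32.2 CPM in animal B. Smooth-muscle-rich spots came next, with Epcam at 129 and 163 CPM and Cdh1 at 92.3 and 104.5 CPM in animals A and B.

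The factors lay elsewhere. Twist1 had its highest level in the tumour-marker-rich spots of animal A, at 23.0 CPM (11.9 to 40.2, from 12 UMIs) against 2.92 CPM, and in the macrophage-rich spots of animal B, at 41.1 CPM (33.8 to 49.6) against 23.6 CPM, where tumour-marker-rich spots had 32.8 CPM. Zeb1 was highest in endothelial-rich spots of both lungs, at 51.0 CPM (32.0 to 77.2) against 35.2 CPM in animal A, where the interval held the level elsewhere, and at 42.1 CPM (29.6 to 58.0) against 20.4 CPM in animal B. Snai1 led in macrophage-rich spots of animal A, at 115 CPM (86.3 to 150) against 68.1 CPM, and in fibroblast-rich spots of animal B, at 161 CPM (137 to 188) against 104.7 CPM. Snai2 was at 18.1 CPM (10.8 to 28.7) in those fibroblast-rich spots against 8.79 CPM, and at 14.6 CPM (6.31 to 28.8, from 8 UMIs) against 11.4 CPM in those of animal A, where the interval held the level elsewhere.

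Vim was highest in macrophage-rich lung spots, at 3022 CPM against 1389 CPM in animal A and 3621 CPM against 2735 CPM in animal B. Cdh2, the cadherin of heart muscle among other tissues, had 13 of its 85 UMIs in the 139 cardiac-rich spots of the lung of animal B, at 12.5 CPM (6.67 to 21.4) against 2.47 CPM. Zeb2 ranged over the lists from 148 CPM in airway-rich to 205 CPM in epidermis-rich spots of animal A, and from 106 CPM in tumour-marker-rich to 159 CPM in alveolar type 2-rich spots of animal B.

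In the primary tumour of animal A the epidermis-rich spots, 124 spots with skin keratins, held 14 of the 59 UMIs of Cdh1 and 22 of the 72 UMIs of Epcam. Cdh1 was at 24.3 CPM (13.3 to 40.7) there against 3.47 CPM, Epcam at 38.2 CPM (23.9 to 57.8) against 3.86 CPM and Snai2 at 15.6 CPM (7.14 to 29.6) against 2.32 CPM. Macrophage-rich spots of that section, with a median of 432 UMIs, had 6 UMIs each of Cdh1 and Epcam. In the animal B primary tumour no list outside the tumour markers held more than 6 UMIs of either gene, and receptor genes were at like levels there. Twist1 in fibroblast-rich spots was at 103 CPM (71.7 to 143) against 59.8 CPM in animal A, where these spots had a median of 408.5 UMIs against 3203 elsewhere, and at 69.2 CPM (49.0 to 94.97) against 59.3 CPM in animal B, where the interval held the level elsewhere.

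**Figure D5:**
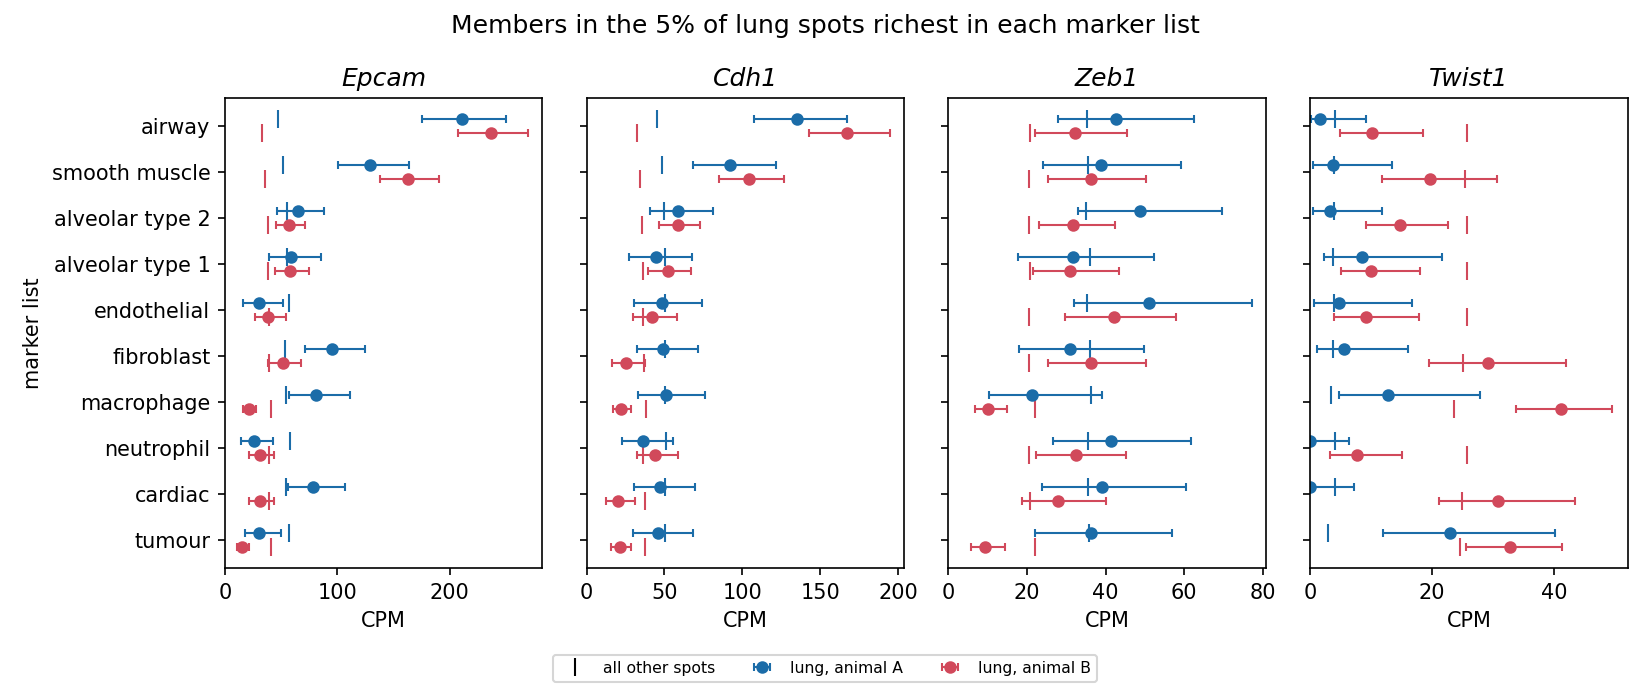
Level of Epcam, Cdh1, Zeb1 and Twist1 in the 5% of lung spots richest in each of 10 marker lists, in CPM on linear axes from 0, with exact 95% Poisson intervals; vertical ticks mark all other spots of the same lung, blue is animal A and red animal B. Epcam and Cdh1 stand out in airway-rich and smooth-muscle-rich spots of both lungs, where Epcam reaches 210.5 and 237 CPM in airway-rich spots.

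The last comparison asked whether the genes follow fibroblast markers in the primary tumour. Bins were cut in the same way by fibroblast markers, and in each section bin 1 was made of spots without any fibroblast-marker UMI. These spots were shallow in animal A, with a median of 520 UMIs against 4099.5 in bin 4, and rich in receptor genes in animal B, with a median of 16.95 against 6.87 CPM. Cdh2 had too few UMIs for the test, and none of the other 8 genes passed edgeR's test, where 5 of 16153 genes passed (0.031%), and none with the block, where 523 passed (3.24%), 2.08% as higher and 1.16% as lower. No member had an unadjusted p under 0.05 without the block, where 152 of all tested genes had one. With the block 2 of the 8 had one, as had 3457 of the 16153 tested genes. DESeq2 called 5 genes.

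Vim was higher in bin 4 than in bin 1 in both sections, at 6287 against 5447 CPM in animal A and 7622 against 5958 CPM in animal B (log2 fold change 0.50 ± 0.27, adjusted p = 0.96, and 0.21 with the block). Snai1 was at 126 against 134 CPM in animal A and 107 against 68.7 CPM in animal B. Twist1 was at 65.4 against 53.3 CPM and at 61.9 against 63.3 CPM. Cdh1 and Epcam had 1 UMI each in bin 1 of animal A, and in that of animal B Cdh1 was at 20.5 CPM against a receptor median of 16.95 CPM, so that their log2 fold changes of -0.57 ± 1.46 and 0.68 ± 1.30 carry little. With the block 13 of 21 tested mesenchymal genes, 4 of 18 other EMT factors, 3 of 17 TGF-beta inputs, 1 of 22 epithelial junction genes, 1 of 18 cadherin-catenin genes and 0 of 10 epithelial regulators were higher and 0 lower, and 0 of any list passed without it. Tgfb1, a TGF-beta ligand, was at 338.5 and 241 CPM in bin 4 against 219 and 111.5 CPM in bin 1. The fibroblast markers on the mesenchymal list were left out of these counts. Among spots of 2000 UMIs or more 0 genes passed in all, and 56 with the block.

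Which genes follow the members across the lung was read over 79 patches of 21 to 64 neighbouring spots, 30 in animal A and 49 in animal B, as Pearson's r of log2 CPM centred within each section. Patches of one section share a library and depth, so these values are descriptions. Epcam was most like Cxcl17, a chemokine of mucosal epithelium (r = 0.84, 0.77 in animal A and 0.89 in animal B), Tmem176a (0.84) and Car8 (0.83). Cdh1 was most like Sec14l3 (0.80, 0.55 and 0.84), the carboxylesterase Ces1d (0.80) and Scnn1b, of the epithelial sodium channel (0.78). Zeb1 was most like the focal adhesion gene Tns1 (0.80, but 0.35 in animal A and 0.88 in animal B), Fmo1 (0.80) and Traf3ip3 (0.80). Vim was most like the histone gene Hist1h2bj (0.89), the endoplasmic reticulum chaperone gene Hspa5 (0.89) and the nucleolin gene Ncl (0.88), in both animals. Snai1 was most like Pcgf3 (0.67), and Zeb2 like Myct1 (0.58). These names depended on the patches: with smaller patches 1 of the 3 genes most like each of Epcam, Cdh1 and Vim was the same and 0 for Zeb1, Snai1 and Zeb2, and with patches of 100000 UMIs or more 2 of 3 were the same for each of these members but Zeb2 (0).

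Among the members themselves Cdh1 and Epcam went together (r = 0.72, 0.48 in animal A and 0.77 in animal B). Zeb1 went with Cdh1 in animal B (0.73) and not in animal A (-0.03), and opposite to Vim in animal B (-0.72) and not in animal A (-0.05). Snai1 went with Vim in both (0.39 and 0.63). In the primary tumour, over 87 patches, the highest value was 0.88 for Zeb2, with Bcas2 (0.94 in animal A and 0.51 in animal B), 0.85 for Twist1, with Ankrd37 (0.93 and 0.52), and 0.73 for Vim, with Lgals3 (0.80 and 0.67). With smaller patches 2 of the 3 genes most like Vim were the same and 0 for Zeb2 and Twist1. With patches of 100000 UMIs or more in that tissue, which left 56, none of the 3 genes most like each member stayed the same, and the highest values of Zeb2, Twist1 and Vim were 0.74, 0.56 and 0.75.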

How the data were processed

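RNA of 4 sections (primary tumour and lung of 2 mice) was read with the mouse probe kit for fixed tissue. Raw counts of UMIs, 1 value for each gene in each spot, were what the authors deposited, written by Space Ranger 2.0.0 per the file headers, and mm10 is the build per the labels. Probe counting reads short probe pairs, so paralogs depend on probe design. Kept spots had more than 200 genes. UMIs were summed per section or class of spots and tested in R 4.3.3 by edgeR 4.0.16 (filterByExpr, TMM, quasi-likelihood, Benjamini-Hochberg over all tested genes, threshold 0.05), with the SE taken as the log2 fold change over the square root of F. DESeq2 1.42.0 was an alternative. The scripts were tested on simulated data.

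Same-numbered sections came from the same animal, so the mouse was also fitted as a block. The correlation of their deviations was -0.29 for whole sections, 0.56 for the lung bins, -0.33 for the tumour-marker-rich bins and 0.80 for the fibroblast bins. Each p-value rests on 2 animals and on an estimate of spread that edgeR or DESeq2 shares over genes. With the block, p-values of whole sections followed a normal tail. They thus rest on the shared spread and do not measure a gene's own spread between 2 animals. Ties in a marker share were broken by barcode. Intervals are exact Poisson at 95% and cover counting error only. Regulators, junction and other lists, markers and members were chosen with earlier results of these data known, so list counts are no independent support. Named were all members, of each list the 2 highest and the 2 lowest called with the block, and the 3 genes most like each member of 10 CPM or more in both sections of a tissue, over patches of 8 by 16 grid steps with at least 20 spots, on log2(CPM + 5). Krt18, Twist2, Scgb1a1, Scgb3a1, Sftpb and Actc1 were not used here. Python 3.11.15, numpy 2.4.6, scipy 1.17.1 and pandas 2.3.3 did the rest. Alternatives were the block, DESeq2, no filter, all spots, bins of 10%, leaving out a section or mouse, subtracting the receptor-gene mean (and, chosen after seeing the data, deeper spots and patches, crossed numbers and the block with these).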

Additional observations from a re-analysis of the deposited data

How the results depend on the processing

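The mouse block moved the number of genes called from 1139 to 1817 for whole sections, from 0 to 54 for the lung bins, from 0 to 6 for the tumour-marker-rich bins and from 5 to 523 for the fibroblast bins. With the numbers crossed it gave 2565 calls for whole sections and 853 for the tumour-marker-rich bins. DESeq2 gave 2644, 2 and 737 calls in the first 3 comparisons, and no filter gave 2022 for whole sections and 1237 for the tumour-marker-rich bins. Subtracting background gave 98 for whole sections and 919 with the block, and with the block 402 for the tumour-marker-rich bins. For fibroblast bins, bins of 10% of spots gave 0 (205 with the block) and spots of 2000 UMIs or more gave 0 (56 with the block), while for lung bins those deeper spots gave 3 with the block. Leaving out 1 section, where the lone section is assumed to vary like the other tissue, gave 883 to 6604 calls for whole sections and 0 to 4813 for the tumour-marker-rich bins. The cause of these shifts was not tested.

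Values that changed sign were all of genes that had not passed. For whole sections Zeb2 was -0.15 with background subtracted, -0.22 with the block as well and -0.20 to 0.70 without 1 section, Snai1 was 0.063 with no filter and -0.38 to 0.41 without 1 section, and Cdh2 was -0.43 to 2.27 without 1 section. In tumour-marker-rich bins, without 1 section, Zeb2 ranged from -0.47 to 0.23, Snai1 from -0.48 to 0.14 and Cdh2 from -0.11 to 2.24. In fibroblast bins Zeb2 was -0.00088 in bins of 10%, -0.049 in deeper spots and -0.047 with the block there, Cdh1 was 0.017 and 0.16, Zeb1 0.018 and 0.056, Epcam -0.18 in deeper spots, and Snai2 0.029 with no filter and 0.19 in deeper spots with the block. In all, 326 of the members' alternative fold changes kept both direction and side of the threshold, 23 changed sign, 23 newly passed, 5 no longer passed and 11 values of 1 animal alone, with no test, moved by more than the SE or changed sign. Of the levels in marker-rich spots, 397 stayed inside their counting interval with 10% of spots and 35 did not. Depth limits Cdh2 in all sections and Snai2 above all in the primary tumours, and background limits low genes in the animal B primary tumour.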
